A study of Saccharomyces cerevisiae with 4 samples.

Results

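The 8 genes described here make, take up, release or break down glycerol in Saccharomyces cerevisiae. They were selected by name and pathway role, with earlier results of these data known. GPD1, GPD2, GPP1 and GPP2 stood for synthesis, GUT1 and GUT2 for breakdown, STL1 for uptake and FPS1 for the channel. All 8 had a probe set on the array and were among the 5449 yeast genes tested. The study compared cultures of the haploid laboratory strain BY4741, grown in the rich glucose medium YPD, that had received honokiol at 12 µg/mL for 2 h with cultures given the same volume of its solvent ethanol. Honokiol is a biphenolic compound of magnolia bark. Each group had 2 Affymetrix arrays, whose titles call the replicates biological. Both groups had a stated age of 8 h, and the strain's auxotrophic mutations were shared by all cultures.

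Yeast makes glycerol from the glycolytic intermediate dihydroxyacetone phosphate. A glycerol 3-phosphate dehydrogenase (Gpd1 or Gpd2) reduces it at the expense of NADH, and a glycerol 3-phosphatase (Gpp1 or Gpp2) then removes the phosphate. Glycerol is the main solute that yeast accumulates in media of high osmolarity, under control of the HOG (high osmolarity glycerol) kinase pathway, and its synthesis also reoxidises cytosolic NADH when oxygen is short. The channel Fps1 lets glycerol out, the proton symporter Stl1 brings it in, and growth on glycerol needs the glycerol kinase Gut1 and the mitochondrial glycerol 3-phosphate dehydrogenase Gut2.

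The values are RMA intensities, which are relative brightness values that have been background-corrected and normalized between arrays, with 1 value per probe set and array. Each of the 8 genes had a single probe set, and its mean in both groups lay above the background level of log2 4.37, the level below which 95% of the probe sets for genes of another species fell. The lowest group mean was that of STL1 with ethanol, at log2 5.94. Lying above this background level does not by itself show expression. The probe set of LEU2, deleted in BY4741, also did so, with means of log2 4.38 with honokiol and 4.41 with ethanol. STE3, a gene specific to alpha-cells, had higher means than STL1, at 7.92 with honokiol and 7.32 with ethanol. The median of the tested genes was log2 9.57 to 9.59 on all 4 arrays. Across the tested genes, Pearson's r between replicates was 0.998 in the honokiol pair and 0.995 in the ethanol pair. The gap between replicates varied less in the honokiol pair (SD 0.12 on the log2 scale) than in the ethanol pair (SD 0.21). The log2 ratio of 5' to 3' signal, averaged over 7 yeast control transcripts, was -1.18 and -1.22 on the honokiol arrays, against -1.31 and -1.67 on ethanol arrays 1 and 2. This measure of RNA integrity and labelling was therefore higher with honokiol, and ethanol array 2 lay farthest from the rest. Both honokiol arrays lay above both ethanol arrays, so a fit with this ratio as a covariate cannot separate it from the treatment. The honokiol arrays barely differed in the ratio, so such a fit rests mainly on the gap between the 2 ethanol arrays. The values given below with this covariate show dependence on that gap, not changes corrected for RNA quality. Standard errors can also rise with it, so a lost call need not mean a smaller change. Over all tested genes 1867 passed limma's adjusted test with the covariate, against 2663 without it. As for the strain, the probe sets of LEU2 and MET17, deleted in BY4741, gave log2 values of 4.28 to 4.56 and that of the deleted URA3 gave 2.73 to 3.10. HIS3, of which the strain's allele removes only a part, gave 10.70 to 11.05. The 5 genes specific to a-cells, the mating type of BY4741, ranged from 10.89 to 13.52, and the 3 genes specific to alpha-cells from 3.27 to 7.98. By limma's adjusted test 4 of the 5 a-cell genes were lower with honokiol, where 25.0% of all tested genes were lower. Of the 3 alpha-cell genes 1, STE3, was higher, where 23.9% of all tested genes were higher. The alpha-cell genes read lower on ethanol array 2 than on ethanol array 1, STE3 at 7.14 against 7.51. In such whole-culture RNA, a change in the make-up of the culture and a change per cell cannot be told apart.

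**Figure D1:**
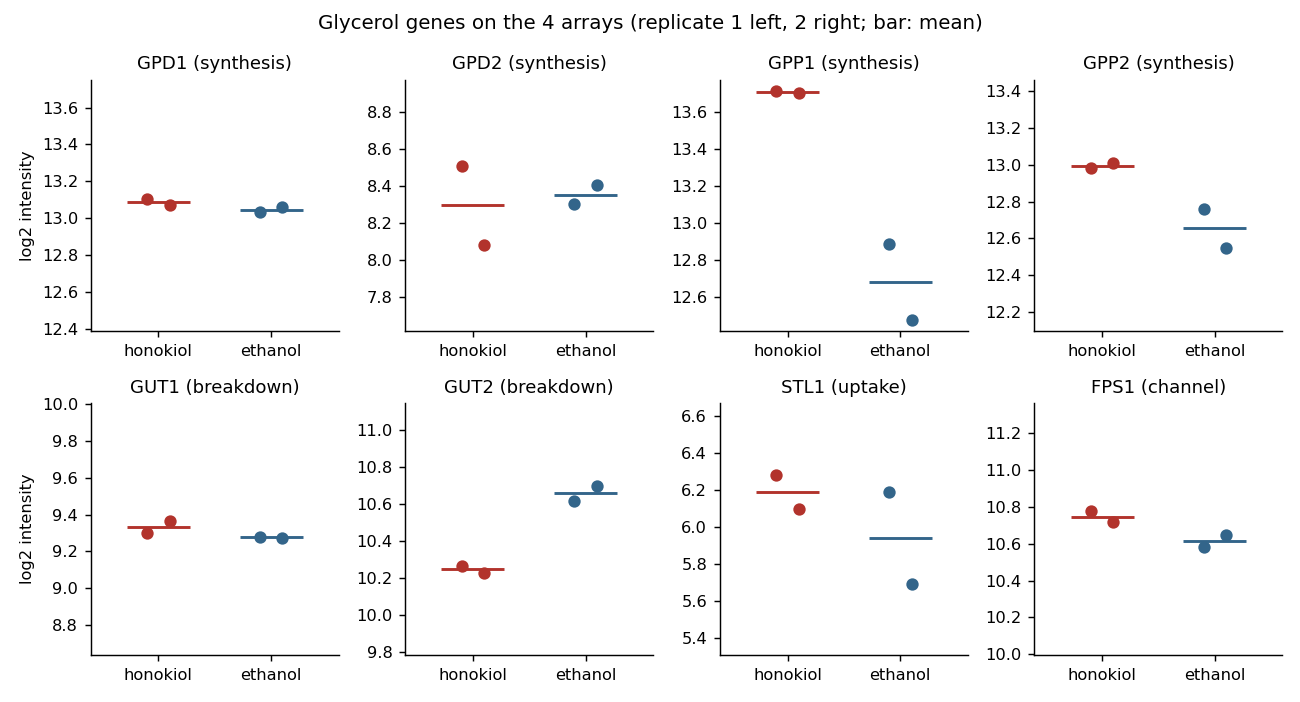
Log2 intensity (vertical axis) of each of the 8 glycerol genes on the 2 honokiol arrays (red, left) and the 2 ethanol arrays (blue, right), with the group mean as a bar; all panels span the same number of log2 units. GPP1, GPP2 and GUT2 show separated groups with called differences, while the arrays of GPD2 and STL1 overlap.

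Honokiol was compared with ethanol to ask which transcripts differ after 2 h of exposure. Among the glycerol genes, both phosphatase genes of synthesis, GPP1 and GPP2, rose, and GUT2 of breakdown fell. The other 5 genes, among them the dehydrogenase genes GPD1 and GPD2 that precede the phosphatases, did not pass the threshold. Thus 2 of 8 genes were higher and 1 lower in limma's test, which used an adjusted p under 0.05 after Benjamini-Hochberg adjustment over all 5449 genes. Over all tested genes, 48.9% passed, 23.9% as higher and 25.0% as lower, so the share among the glycerol genes was not above that background. In 6 of 8 genes both honokiol arrays lay on the same side of both ethanol arrays, where 80.2% of all tested genes did so. The median log2 fold change was 0.09 for the 8 genes and 0.01 for all tested genes, and the median size of the change was 0.19 and 0.25.

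**Figure D2:**
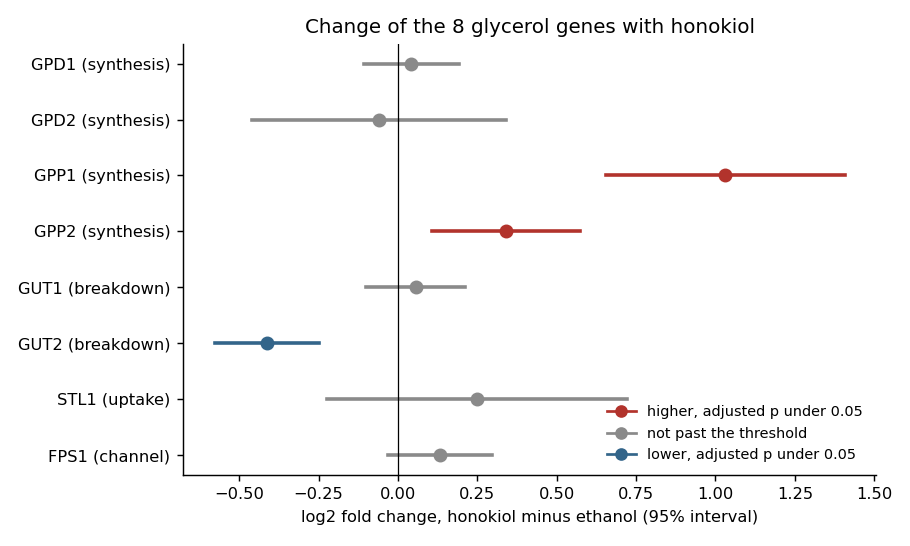
Log2 fold change of honokiol over ethanol (horizontal axis) for the 8 glycerol genes, with 95% intervals from the limma fit as lines. The interval lies above 0 for GPP1 and GPP2, below 0 for GUT2 and across 0 for the other 5 genes.

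GPP1, also called RHR2, encodes the glycerol 3-phosphatase that is made under ordinary growth. Its intensity was 13443 and 13365 on the honokiol arrays, against 7564 and 5694 on the ethanol arrays. The honokiol arrays nearly coincided, the ethanol arrays differed from each other by log2 0.41, and the groups did not overlap. The mean log2 intensity was 13.71 ± 0.01 with honokiol and 12.68 ± 0.29 with ethanol (SD, n = 2 each). This was a 2.04-fold rise (log2 1.03 ± 0.14, SE; limma adjusted p = 0.00642). It was the only one of the 8 genes to change by at least 2-fold, as did 4.94% of all tested genes in either direction, and 95.5% of tested genes had a smaller absolute change. The ethanol array with the lower 5' to 3' ratio, array 2, was also the lower one for GPP1. With that ratio as a covariate the log2 change was 0.71 (adjusted p = 0.00726).

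GPP2, also called HOR2, encodes the second isoform of the phosphatase, known for its induction by osmotic stress. Its intensity was 8086 and 8239 on the honokiol arrays, against 6945 and 5992 on the ethanol arrays, again without overlap. The means were log2 12.99 ± 0.02 with honokiol and 12.66 ± 0.15 with ethanol (SD, n = 2 each), a 1.27-fold rise (log2 0.34 ± 0.09, SE; limma adjusted p = 0.0327). This was the least secure of the 3 called changes. With every probe set other than AFFX controls as a feature it kept its size but not its call (limma adjusted p = 0.0884). With the 5' to 3' ratio as a covariate, which cannot be separated from the treatment, it was log2 0.18 (limma adjusted p = 0.15). The change of GPP2 minus that of GPP1, taken on the same arrays, was log2 -0.69. On each array relative to the ethanol mean, this difference was -0.71 and -0.67 with honokiol and -0.10 and 0.10 with ethanol. Its exact two-sided permutation p was 0.333, the smallest that 2 arrays against 2 can give. The proteins are close paralogs, and whether either probe set also binds the other's transcript was not tested; neither carries the platform's mark for several targets.

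GPD1 encodes the glycerol 3-phosphate dehydrogenase that HOG signalling induces. Its intensity was 8817 and 8621 on the honokiol arrays, against 8381 and 8553 on the ethanol arrays. Both honokiol values lay above both ethanol values, but by little, with a log2 change of 0.04 ± 0.06 (SE; 95% interval -0.11 to 0.19; limma adjusted p = 0.569). The upper end of the interval corresponds to a 1.14-fold rise. Only 9.54% of tested genes had a smaller absolute change.

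GPD2 encodes the dehydrogenase isoform known for its role in redox balance without oxygen. Its intensity was 364.0 and 270.6 on the honokiol arrays, against 315.4 and 339.1 on the ethanol arrays. The honokiol arrays enclosed the ethanol arrays, so the groups overlapped, and the spread between the honokiol replicates (SD 0.30 on the log2 scale) was wider than for any other of the 8 genes. The log2 change was -0.06 ± 0.15 (SE; 95% interval -0.46 to 0.34; limma adjusted p = 0.766). Its direction rested on 1 array: without honokiol array 2 the value was 0.15, and without honokiol array 1 it was -0.27. The change of GPD1 minus that of GPD2 was log2 0.10 (exact two-sided permutation p = 1).

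GUT2 encodes the FAD-dependent glycerol 3-phosphate dehydrogenase of the mitochondrial inner membrane, which acts in glycerol breakdown and in a shuttle that passes electrons from cytosolic NADH to the respiratory chain. Its intensity was 1232 and 1198 on the honokiol arrays, against 1571 and 1663 on the ethanol arrays. Both groups were tight and did not overlap. The means were log2 10.25 ± 0.03 with honokiol and 10.66 ± 0.06 with ethanol (SD, n = 2 each), so GUT2 fell by 0.41 ± 0.06 on the log2 scale (SE; limma adjusted p = 0.008), and ethanol over honokiol was 1.33-fold. With the 5' to 3' ratio as a covariate it fell by 0.35 (adjusted p = 0.0318).

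GUT1 encodes glycerol kinase, the enzyme that phosphorylates glycerol ahead of Gut2. Its intensity was 629.9 and 660.0 on the honokiol arrays, against 621.2 and 619.4 on the ethanol arrays. The groups did not overlap, yet the change was small, at log2 0.06 ± 0.06 (SE; 95% interval -0.10 to 0.21; limma adjusted p = 0.471). Within the breakdown branch the change of GUT2 minus that of GUT1 was therefore log2 -0.47. Relative to the ethanol mean this difference stood at -0.41 and -0.52 with honokiol, against -0.04 and 0.04 with ethanol (exact two-sided permutation p = 0.333, the smallest possible).

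STL1 encodes the glycerol/proton symporter, which is known to be repressed by glucose and induced by osmotic shock. Its intensity was low on every array, at 77.9 and 68.4 with honokiol and 73.0 and 51.8 with ethanol, and the groups overlapped. The log2 change was 0.25 ± 0.18 (SE; 95% interval -0.22 to 0.72; limma adjusted p = 0.299), with the widest interval of the 8 genes. The ethanol arrays differed by log2 0.50, array 2 being the lower one as for GPP1 and GPP2. Without ethanol array 1 the change was 0.50 (adjusted p = 0.0102), and without ethanol array 2 it was 0.0002 (adjusted p = 0.998). It was -0.16 with the 5' to 3' ratio as a covariate and -0.0075 after another round of quantile normalization, so no direction can be given for STL1.

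FPS1 encodes the aquaglyceroporin through which glycerol leaves the cell. Its intensity was 1754 and 1681 on the honokiol arrays, against 1531 and 1602 on the ethanol arrays. The groups did not overlap, but the log2 change of 0.13 ± 0.06 (SE; 95% interval -0.03 to 0.30) did not pass the threshold (limma adjusted p = 0.14). The change of STL1 minus that of FPS1 was log2 0.12 (exact two-sided permutation p = 1).

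**Figure D3:**
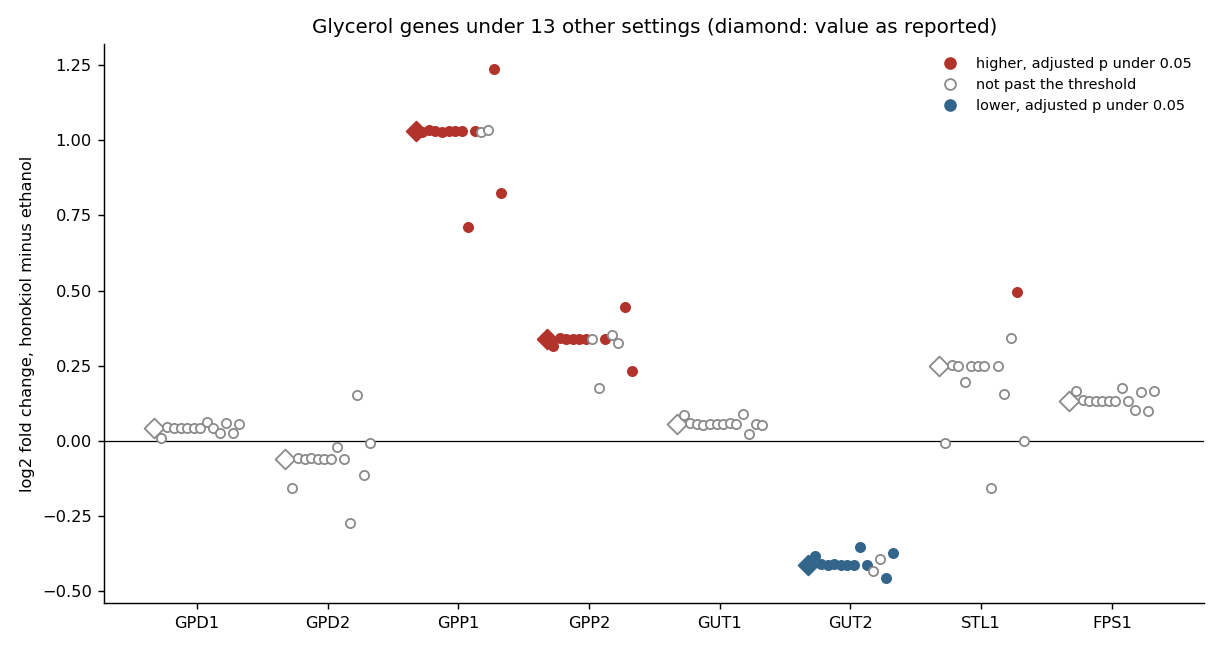
Log2 fold change of honokiol over ethanol (vertical axis) for each of the 8 glycerol genes as reported (diamond) and under 13 other settings (circles); filled symbols have a limma adjusted p under 0.05. GPP1 and GPP2 stay above 0 and GUT2 below 0 in all of them, while GPD2 and STL1 have values on both sides of 0.

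The calls of GPP1, GPP2 and GUT2 needed both honokiol arrays. Without honokiol array 1 or array 2, 0 of the 8 genes passed limma's adjusted threshold and 2 had an unadjusted p under 0.05, as the spread then came from the wider ethanol pair alone. The sizes moved little: the log2 change of GPP1 was 1.03 in both cases (adjusted p = 0.0558 without honokiol array 1 and 0.054 without honokiol array 2). That of GPP2 was 0.35 and 0.33 (adjusted p = 0.152 and 0.163), and that of GUT2 was -0.43 and -0.39 (adjusted p = 0.0719 and 0.0799). Over all genes, 708 and 705 passed without these arrays, against 2663 with all 4.

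The pattern nearest to that of GPP1, the glycerol gene with the largest change, was sought among all tested genes by Euclidean distance over the 4 gene-centred log2 values. The 3 nearest were BMT6, a ribosomal RNA methyltransferase gene, at a distance of 0.01, ROX1, a repressor of hypoxic genes, at 0.04, and RRT14 at 0.05. Their log2 changes were 1.02, 1.04 and 1.05, and each had ethanol array 2 below ethanol array 1, as GPP1 did. With the 5' to 3' ratio as a covariate the changes were 0.70, 0.68 and 0.78. With 4 arrays in 2 groups many genes share such a profile, so this likeness is a description only.

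Other genes of the pathway were examined in 8 lists drawn up by role, also with earlier results of these data known. In these lists 64 genes were tested, and ENA1 was not analysed here. Of the 64 genes, 12 were higher and 19 lower with honokiol, which is 48.4% called, against 48.9% of all tested genes. The count is thus that of the background, in which 23.9% of genes were higher and 25.0% lower, and the counts of the single lists are to be read against the same shares. With every probe set other than AFFX controls as a feature, 24 of the 31 calls were kept. Without honokiol array 1 or array 2, 10 of these 31 calls were kept in each case, and 23 were kept with the 5' to 3' ratio as a covariate; no called gene turned its direction in these fits. Those kept in both cases were ALD3, AQY1, AYR1, CTT1, GRE2, NDE1, NDE2, RSF1 and SMP1. RCK2 also passed without honokiol array 1 and PTP3 without honokiol array 2.

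**Figure D4:**
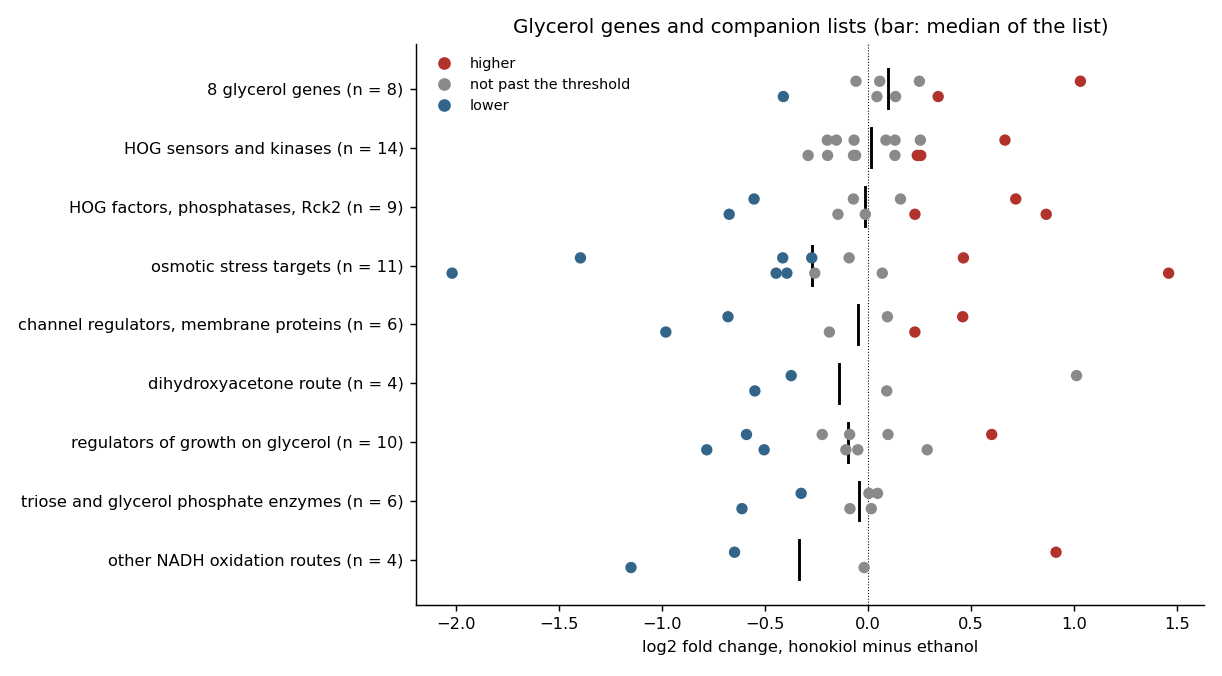
Log2 fold change of honokiol over ethanol (horizontal axis) for the 8 glycerol genes and for each gene of the 8 lists of related genes, with the list's median as a black bar and colour for calls at a limma adjusted p under 0.05. Medians of the 8 lists lie between -0.33 and 0.01, and that of the 8 glycerol genes is 0.09. Single genes spread from ALD3 at -2.02 to GRE2 at 1.46.

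In the HOG pathway itself, changes were modest. Of 14 sensor and kinase genes 3 rose and 0 fell by limma's adjusted test, with a median log2 change of 0.01. At an unadjusted limma p under 0.05, 3 were higher and 4 lower. Of all 5449 tested genes, 1534 were higher and 1588 lower at that unadjusted threshold. Unadjusted counts here and in the lists below are to be read against these. SSK22, a MAP kinase kinase kinase of the Sln1 branch, rose by log2 0.66 (adjusted p = 0.00768). The MAP kinase gene HOG1 rose by 0.255 ± 0.061 (SE; adjusted p = 0.0258) and YPD1, which encodes the phosphotransfer protein, by 0.24 (adjusted p = 0.027). Neither HOG1 nor YPD1 passed with every probe set other than AFFX controls as a feature (adjusted p = 0.0859 and 0.0923). Both lost their call with the 5' to 3' ratio as a covariate. HOG1 was then 0.249 ± 0.083 (SE; limma adjusted p = 0.0827), so its size hardly moved and its SE rose. YPD1 was then 0.20 ± 0.07 (SE; limma adjusted p = 0.103). Without ethanol array 2 the change of YPD1 was 0.21. SSK2, the paralog of SSK22, had a log2 change of -0.29 (adjusted p = 0.0706) and the osmosensor gene SHO1 one of 0.25 (adjusted p = 0.0929). Both depended on which ethanol array was used. Without ethanol array 1 they were -0.41 and 0.38 and passed (adjusted p = 0.0119 and 0.00757), without ethanol array 2 they were -0.18 and 0.13 (adjusted p = 0.143 and 0.18), and with the covariate -0.10 and 0.05 (adjusted p = 0.429 and 0.597). The list had 5 higher and 3 lower genes without ethanol array 1, 2 and 0 without ethanol array 2, and 1 and 0 with the covariate.

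Downstream of Hog1, 3 of 9 genes for transcription factors, phosphatases and the kinase Rck2 rose and 2 fell (median -0.01). SMP1, a transcription factor of the MEF2 type, rose by log2 0.86 (adjusted p = 0.00378). The tyrosine phosphatases that switch Hog1 off were both higher, PTP3 by 0.72 (limma adjusted p = 0.00496) and PTP2 by 0.23 (limma adjusted p = 0.0314). With the covariate PTP2 was 0.27 but lost its call (limma adjusted p = 0.0541). Without ethanol array 1 it was 0.20. PTP2 also lost its call with every probe set other than AFFX controls as a feature (adjusted p = 0.104). MSN4, a general stress activator, fell by 0.68 (adjusted p = 0.0132) and RCK2, a kinase that Hog1 phosphorylates, fell by 0.55 (adjusted p = 0.00377).

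Among genes known to be induced by osmotic stress, as GPD1, GPP2 and STL1 are, 2 of 11 rose (18.2%, against 23.9% of all tested genes) and 6 fell (54.5%, against 25.0%), with a median of -0.27. GRE2, a methylglyoxal reductase gene, stood at log2 12.19 and 12.25 with honokiol and 10.72 and 10.80 with ethanol, a 2.75-fold rise (adjusted p = 0.000889). YML131W rose by 0.46 (adjusted p = 0.00565). In the other direction, the aldehyde dehydrogenase gene ALD3 fell by 2.02 (adjusted p = 0.00183), the catalase gene CTT1 fell by 1.40 (adjusted p = 0.00241) and HSP12, a membrane-protecting small heat shock protein gene, fell by 0.45 (adjusted p = 0.00567). These targets thus went both ways, and several of them also belong to the general stress response.

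Among proteins that act with the channel or resemble it, 2 of 6 genes rose and 2 fell (median -0.05). The paralogous regulators of Fps1 opening differed in direction. RGC1 stood at log2 9.83 and 9.89 with honokiol and 10.41 and 10.67 with ethanol, and fell by 0.68 (adjusted p = 0.00738). ASK10 rose by 0.23 (adjusted p = 0.0348). Its call was lost with the covariate (limma adjusted p = 0.0957), where its change was still 0.23 and its SE was 0.083 against 0.061. The call was also lost with every probe set other than AFFX controls as a feature (limma adjusted p = 0.11). The aquaporin gene AQY1 fell by 0.98 (adjusted p = 0.00606) and AQY2, its paralog, rose by 0.46 (adjusted p = 0.0106). GUP1, a membrane acyltransferase gene first linked to glycerol uptake, had a log2 change of -0.19 (adjusted p = 0.0768).

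The dihydroxyacetone route is another way to break glycerol down, by oxidation and then phosphorylation. Of its 4 genes 0 rose and 2 fell by limma's adjusted test, with 1 higher and 2 lower at an unadjusted p under 0.05 (median -0.14). The dihydroxyacetone kinase gene DAK1 fell by 0.55 (adjusted p = 0.00546) and the reductase gene YPR1 fell by 0.37 (adjusted p = 0.0137; 0.0525 with the covariate). DAK2, the other kinase gene, had log2 values of 6.90 and 6.71 with honokiol, against 6.35 and 5.24 with ethanol. Its difference of log2 1.01 ± 0.37 (SE) did not pass (adjusted p = 0.0772), and the ethanol arrays lay far apart. It was 1.57 without ethanol array 1 (adjusted p = 0.000502) and 0.46 without ethanol array 2 (adjusted p = 0.0177). With the covariate the difference was 0.13 (adjusted p = 0.253). GCY1, a glycerol dehydrogenase gene, had a log2 change of 0.09 (adjusted p = 0.446).

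Of 10 regulators of growth on glycerol and other non-fermentable carbon sources, 1 rose and 3 fell (median -0.10). CAT8, an activator of gluconeogenic genes, fell by 0.78 (adjusted p = 0.0112), or fell by 0.49 with the 5' to 3' ratio as a covariate (adjusted p = 0.0187). RSF1 and RSF2, both linked to respiratory growth on glycerol, fell by 0.59 (adjusted p = 0.00316) and fell by 0.51 (adjusted p = 0.00912). INO2, an activator of phospholipid genes that also acts on GUT1, rose by 0.60 (adjusted p = 0.0153), or by 0.35 with the covariate (adjusted p = 0.0309) and 0.37 after another quantile normalization (adjusted p = 0.00927). ADR1, an activator of GUT1, had a log2 change of 0.29 (adjusted p = 0.171) that depended on which ethanol array was used. It was 0.08 without ethanol array 1 (adjusted p = 0.41), 0.49 without ethanol array 2 (adjusted p = 0.00659) and 0.62 with the covariate (adjusted p = 0.00935).

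At the branch points of the pathway, 0 of 6 enzyme genes rose and 2 fell by limma's adjusted test, the same numbers as at an unadjusted p under 0.05 (median -0.04). TPI1 and FBA1, the glycolytic genes that make and interconvert dihydroxyacetone phosphate, had log2 changes of 0.01 and 0.05 (adjusted p = 0.841 and 0.532). AYR1, a reductase gene that makes a lipid precursor from acylated dihydroxyacetone phosphate, fell by 0.61 (adjusted p = 0.00414). GPT2, an acyltransferase gene that draws glycerol 3-phosphate into lipids, fell by 0.33 (adjusted p = 0.031), with a change of -0.17 under the covariate (adjusted p = 0.135), and its paralog SCT1 had a change of -0.09 (adjusted p = 0.332).

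Cytosolic and mitochondrial NADH can also be oxidised by routes other than glycerol synthesis and the Gut2 shuttle. Of 4 such genes 1 rose and 2 fell (median -0.33). NDE1, an external NADH dehydrogenase gene, rose by log2 0.91 (adjusted p = 0.00147), its paralog NDE2 fell by 1.15 (adjusted p = 0.00268) and the internal dehydrogenase gene NDI1 fell by 0.65 (adjusted p = 0.00627). ADH3, the mitochondrial alcohol dehydrogenase gene, had a log2 change of -0.02 (adjusted p = 0.785).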

How the data were processed

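Transcript levels of BY4741 yeast were measured on 4 Affymetrix arrays, and groups and replicate numbers were taken from the sample titles. The authors' deposited values are linear intensities from RMA, per the submitters' processing notes; the version of RMA and the genome build are not given in the sources used here, so no coordinates are printed. Log2 was taken with no pseudocount, although the plan had allowed for values already on a log2 scale. Of 10928 probe sets, 5498 named 1 S. cerevisiae gene through the platform annotation and the R64 gene table; 1746 named a gene of another species, 1 named several genes and 3683 were unnamed. The brightest probe set of each gene was tested. The number of arrays limits the precision.

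The comparison used limma 3.58.1 in R 4.3.3 (lmFit and eBayes across all 5449 genes, two-sided, Benjamini-Hochberg threshold 0.05), with 2 residual and 2.76 prior degrees of freedom. Alternatives were other normalizations, variance priors, offsets, filters, probe set choices and features, the 5' to 3' ratio as a covariate, the replicate number as a block, and each array left out. In each of 10 simulations 200 of the 5449 genes were changed, with variances drawn from limma's fitted prior and independent normal noise. There the step recovered 60.2% of changes of log2 0.5, 93.4% of log2 1 and 98.9% of log2 2, with 4.68% of calls false. In the data 2663 genes passed, so these shares check the step and do not carry over to this comparison. How far a gene that did not pass may still differ is to be read from its own interval in the limma fit. For GPD1, GUT1 and FPS1 this interval ran from log2 -0.11 to 0.19, -0.10 to 0.21 and -0.03 to 0.30. For GPD2 it ran from -0.46 to 0.34, and for STL1 from -0.22 to 0.72. Among these genes, only the interval of STL1 reached a change of log2 0.5 in size. Genes named are the 8 members, up to 5 genes with the largest absolute change per list, and the 3 patterns nearest to the member that changed most. The members and lists were chosen with earlier results of these data known. The planned search of promoters for motifs was not run, as no sequence table was used here.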

Additional observations from a re-analysis of the deposited data

How the results depend on the processing

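Each of the 8 changes was recomputed under 13 other settings, 104 values in all, of which 92 kept their direction and their side of the threshold. GPD1, GUT1 and FPS1 did so in all 13, and GPP1 and GUT2 in all but those that left out a honokiol array. GPP2 was log2 0.34 when every probe set other than AFFX controls was a feature (adjusted p = 0.0884) and 0.18 with the 5' to 3' ratio as covariate (adjusted p = 0.15). STL1 reversed to -0.0075 on a further quantile normalization and to -0.16 with that covariate. Leaving out 1 array at a time gave ranges of 0.83 to 1.24 for GPP1, 0.23 to 0.45 for GPP2, -0.45 to -0.37 for GUT2, -0.27 to 0.15 for GPD2 and 0.0002 to 0.50 for STL1. The number of the 8 genes past the threshold then ranged from 0 to 4, and that of all genes from 705 to 3190. With every probe set other than AFFX controls as a feature, 1611 of the tested genes passed. For related genes, the settings were added after seeing the data: SCT1 was 0.0038 with the covariate and TPI1 -0.019 on a further quantile normalization; leaving out arrays gave -0.016 to 0.19 for GCY1 and -0.0039 to 0.034 for TPI1. The causes were not tested, except that leaving out a honokiol array leaves the wider ethanol pair to set the spread.

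Deviations of same-numbered arrays from their group means correlated at 0.33 over genes, but 2 pairs cannot show that the numbers pair the cultures. With the replicate number as a block 2809 genes passed, among them 3 of the 8 glycerol genes, in the same directions; GPP1 was log2 1.03 (adjusted p = 0.006). RMA can compress changes of dim probe sets, and whether it did so for STL1 was not tested.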
